A study of Ovis aries with 6 samples.

Results

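The long-chain acyl-CoA synthetases are the enzymes that join a free long-chain fatty acid to coenzyme A. The family is represented in the deposited table by 5 genes, ACSL1, ACSL3, ACSL4, ACSL5 and ACSL6, out of 28479 named loci and 34119 loci in all. The genes were matched by name. Where a name stood on several loci, the locus was chosen by its mean count over the 6 libraries, as the protein-coding locus with the highest one. The family was brought forward with the result of ACSL3 in these libraries already known. The comparison of atretic with healthy libraries therefore describes the family and is no independent support for any of its members.

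The libraries were made from granulosa cells, the somatic cells that surround the oocyte in the ovarian follicle, of sheep (Ovis aries). There were 3 libraries from atretic follicles, which are follicles undergoing degeneration, and 3 from healthy follicles. RNA was taken with TRIzol, ribosomal RNA was removed, and SuperScript II was used for reverse transcription. The labels call the 3 libraries of a group independent biological replicates and name no treatment, animal, breed, age or follicle size, so p-values measure the spread between these libraries.

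Total counts lay between 87455037 and 91597388 per library. Of 12 granulosa markers 11 were found and tested, and their summed level was 11613 to 11833 CPM (counts scaled to a common total of named loci by the TMM method) in the atretic libraries and 11080 to 41003 CPM in the healthy ones. The 6 theca markers summed to 386 to 442 CPM in atretic and 391 to 915 CPM in healthy, with INSL3, on a shared locus, at 259 to 566 CPM and the receptor PTCH1 at 30.4 to 71.2 CPM. The theca enzyme CYP17A1, chosen after its values were seen, stayed between 0 and 0.41 CPM in all 6 libraries. The 8 endothelial markers, none of them tested, summed to 17.6 to 18.8 CPM in atretic and 22.8 to 45.2 CPM in healthy, without overlap. Of them PECAM1 alone was lower in all atretic libraries, at 5.13 to 7.39 against 16.1 to 30.2 CPM. CLDN5, picked with its values known, went the other way, at 0.0125 to 0.0858 against 0 CPM, and the rest overlapped. Healthy replicate 3 differed most from the rest. It held 14810 CPM of the inhibin and activin subunit INHBA against 2221 to 3007 CPM elsewhere, and 304 CPM of the luteinising hormone receptor LHCGR against 10.6 to 43.1 CPM. Family results that it moved are also given without it below.

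An ACSL enzyme uses ATP to turn a fatty acid into its acyl-CoA, the form in which cells elongate it, burn it, store it in lipid droplets or build it into phospholipids. The members differ in the fatty acids they prefer and in the membranes they sit on. From work in human and mouse cells, ACSL4 is known for activating arachidonic and adrenic acid, whose phospholipids feed the lipid peroxidation of ferroptosis. ACSL3 is known from the endoplasmic reticulum and from forming lipid droplets, ACSL1 from triglyceride synthesis and fatty acid oxidation in fat, heart and liver, ACSL5 from the intestine and mitochondria, and ACSL6 from brain, where it activates docosahexaenoic acid. The deposited table assigns ACSL3, ACSL4, ACSL5 and ACSL6, 4 of the 5 genes, to the ferroptosis pathway of KEGG, and does not assign the ACSL1 locus to it.

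The 5 genes lay on 5 chromosomes, with coordinates as they stand in the deposited table, whose genome build the sources used here do not name. ACSL3 was locus MSTRG.15388 on the plus strand of chromosome 2, from base 240003395 to 240073995. ACSL4 was locus MSTRG.1719 on the plus strand of chromosome X, from 134005825 to 134084078. ACSL1 was locus MSTRG.19638 on the minus strand of chromosome 26, from 16058778 to 16154284. ACSL5 (MSTRG.17614, chromosome 22, 36055704 to 36112541) and ACSL6 (MSTRG.24126, chromosome 5, 20993593 to 21056008) were both on the plus strand. A further 4 loci carried a member's name without an annotated transcript, and all of them overlapped the member's own locus.

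The loci were built in different ways. The length by which the authors scaled a count can be recovered from count, FPKM (fragments per kilobase, scaled to the library total) and library total. It was 60864 bases for ACSL3, or 86.2% of the span of the locus, and 71838 bases for ACSL4, or 91.8% of its span. Lengths that fill nearly the whole span take in the introns, so reads from introns could be counted for ACSL3 and ACSL4. For ACSL1 the length was 23308 bases (24.4% of the span), for ACSL5 2813 bases (4.95%) and for ACSL6 2890 bases (4.63%). The ACSL5 and ACSL6 loci held only annotated transcripts, 2 and 3 of them. The other loci added transcripts assembled by the authors, 10 of 11 in the case of ACSL4. A level per length of ACSL3 or ACSL4 is thus spread over introns, which that of ACSL5 or ACSL6 is not. How much of the 23308 bases of ACSL1 lies in introns was not tested, so its level per length may be spread over introns too.

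By the member loci alone, ACSL4, the arachidonate-activating member, had the highest level per length of the family in every library. It stood at 9.07, 8.01 and 9.27 FPKM in atretic replicates 1, 2 and 3, and at 4.50, 4.74 and 4.41 FPKM in healthy replicates 1, 2 and 3. All atretic libraries lay above all healthy ones, and within each group the libraries lay close together. In TMM-normalised counts ACSL4 had 749, 636 and 752 CPM in atretic and 326, 347 and 416 CPM in healthy, and the groups did not overlap there either. The group means were 8.78 ± 0.68 against 4.55 ± 0.17 FPKM (SD, n = 3), a ratio of 1.93.

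ACSL3, the lipid droplet member, had 5.60, 5.25 and 5.47 FPKM in atretic and 2.69, 2.54 and 2.01 FPKM in healthy replicates 1, 2 and 3. Every atretic library again lay above every healthy one. In TMM-normalised counts the healthy libraries lay within 157.7 to 165 CPM, healthy replicate 3 among them, and the atretic ones within 353 to 392 CPM. By the member loci alone, ACSL3 ranked after ACSL4 in 5 libraries. In healthy replicate 3 ACSL6 took that place on the FPKM scale.

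ACSL1 had 1.75, 1.68 and 1.86 FPKM in atretic and 2.30, 2.1 and 0.84 FPKM in healthy replicates 1, 2 and 3. The healthy libraries lay on either side of the atretic ones, with healthy replicates 1 and 2 highest and healthy replicate 3 lowest of all 6. A further ACSL1 locus without an annotated transcript, MSTRG.19636 on the same strand, shared 16094 bases with the member locus and ran downstream of it. It held 4797 to 5555 counts in atretic and 5855 to 5975 in healthy, more than the member locus in every library. In healthy replicate 3 the member locus had 0.302 counts for each count of this neighbour, against 0.695 to 0.833 in the other libraries. With the loci summed, ACSL1 had 105 to 119 CPM in atretic and 111 to 119 CPM in healthy, and healthy replicate 3 no longer stood apart. Summing the FPKM of all loci of a name changed the order of the members. In healthy replicate 1 ACSL1 then made up 32.8% of the family and ACSL4 32.4%. ACSL1 also exceeded ACSL3 in every healthy library, at 25.6 to 32.9% against 13.1 to 16.5%.

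ACSL5, the mitochondrial and intestinal member, was low. Its counts were 134, 191 and 203 for atretic against 584, 473 and 220 for healthy replicates 1, 2 and 3. This gave 0.54, 0.75 and 0.80 FPKM against 2.29, 1.84 and 0.86 FPKM. All atretic libraries were below all healthy ones, with healthy replicate 3 next to the highest atretic library.

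ACSL6, the brain member, had 112, 202 and 109 counts in atretic and 187, 207 and 643 counts in healthy replicates 1, 2 and 3. Healthy replicate 3 was far above all others at 2.45 FPKM, and the other 5 libraries lay between 0.42 and 0.78 FPKM. The groups overlapped. ACSL6 had a mean of 0.93 FPKM over the 6 libraries and missed the minimum of 1 FPKM for testing, while ACSL5 passed it with 1.18 FPKM. ACSL5 reached the minimum through the healthy libraries alone, since its atretic mean was 0.70 ± 0.14 FPKM (SD, n = 3).

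**Figure D1:**
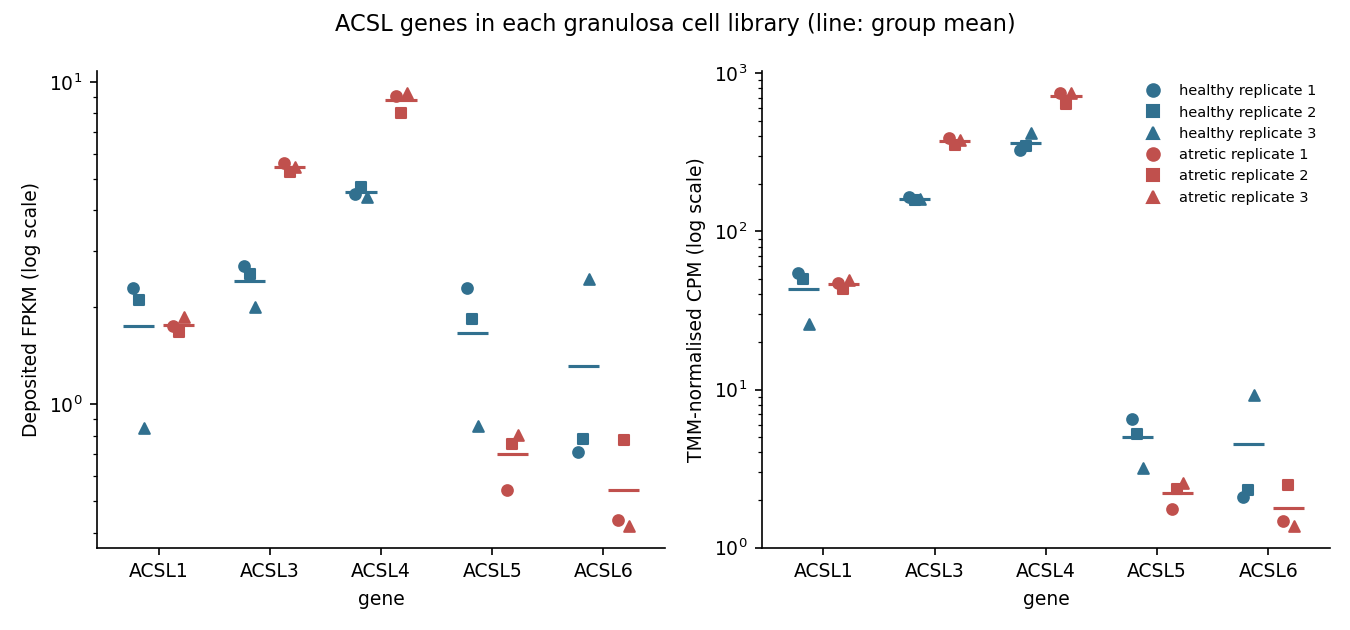
Level of the 5 ACSL genes in each library, as deposited FPKM (left) and TMM-normalised CPM (right), both on log axes; points are libraries, the marker shape is the replicate number and lines are group means. ACSL3 and ACSL4 are higher in all 3 atretic libraries, ACSL5 is lower in all 3, and healthy replicate 3 is lowest for ACSL1 and highest for ACSL6.

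The tests compared atretic with healthy libraries over 14702 loci by edgeR's quasi-likelihood test, with p-values adjusted by Benjamini-Hochberg over all of them. ACSL3 rose in atretic by 1.21 on the log2 scale (SE 0.11, edgeR adjusted p = 0.0438). Of the 4 tested members 1 passed, in a fit that called 0.068% of the loci, 0.0476% as higher and 0.0204% as lower. For ACSL4 edgeR gave 0.97 in log2 (SE 0.16, adjusted p = 0.114), and for ACSL5 -1.17 (SE 0.32, adjusted p = 0.249). Groups that did not overlap on the CPM scale, as in ACSL3, ACSL4 and ACSL5, were found in 22% of the loci, 11.1% with all atretic libraries above and 10.8% with all below. In bulk RNA, fewer cells of a type and less RNA per cell cannot be told apart.

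For ACSL1 edgeR gave 0.10 in log2 (SE 0.27, adjusted p = 0.917). The sign turned to -0.17 (SE 0.10, edgeR adjusted p = 0.256) without healthy replicate 3, and to -0.06 (SE 0.10, edgeR adjusted p = 0.876) when the counts of its overlapping loci were summed. No direction can be given for ACSL1. ACSL6, outside the tested loci, had 0.54 ± 0.20 FPKM in atretic and 1.31 ± 0.99 in healthy (SD, n = 3), and the log2 ratio of the means moved from -1.28 to -0.46 without healthy replicate 3. In a fit without the minimum level, over 27380 loci, ACSL6 had an edgeR adjusted p of 0.594.

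Leaving out healthy replicate 3 changed which members passed. Without it edgeR gave 1.21 in log2 for ACSL3 (adjusted p = 6.45e-06), 1.08 for ACSL4 (adjusted p = 2.72e-05) and -1.41 for ACSL5 (adjusted p = 0.00261). ACSL5 entered these tests through the healthy libraries, where it is high, so its p is given as a description and not as a call. With no minimum level its edgeR adjusted p was 0.401 on all 6 libraries. In the fit without healthy replicate 3, 18.8% of all loci passed, 10.9% as higher and 7.91% as lower. DESeq2 on all 6 libraries called ACSL3 and ACSL4 among 4.29% of its loci, and gave ACSL5, under the same reserve, an adjusted p of 0.0235. ACSL3 missed the threshold when any other library was left out, with edgeR adjusted p from 0.24 to 0.466 and log2 fold changes from 1.18 to 1.25.

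**Figure D2:**
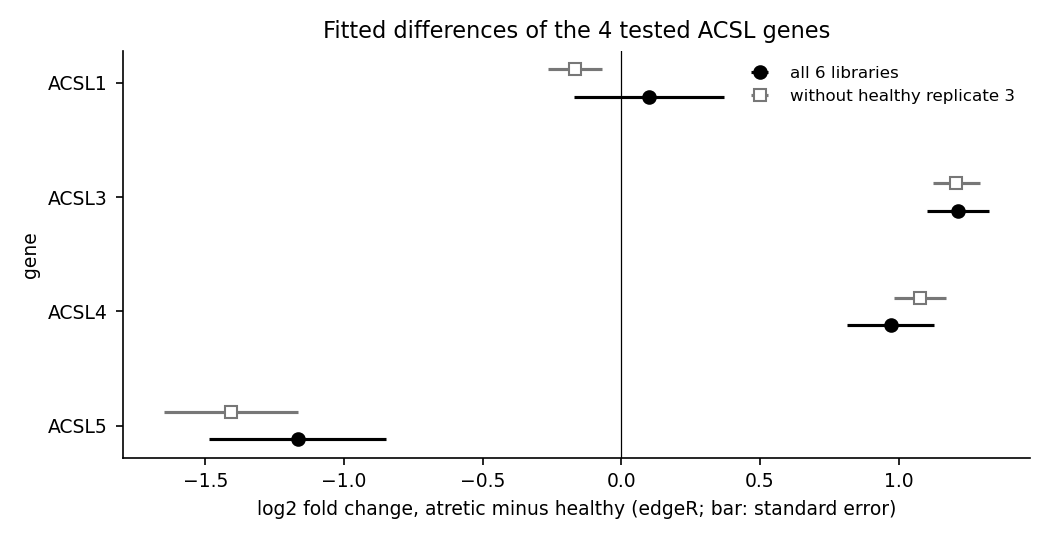
Log2 fold change (atretic minus healthy) of the 4 tested ACSL genes from edgeR, with standard errors, for all 6 libraries (filled circles) and without healthy replicate 3 (open squares). ACSL3 stays at 1.21, ACSL4 moves from 0.97 to 1.08, ACSL5 from -1.17 to -1.41, and ACSL1 changes sign.

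The class of locus moved with these results. Among tested protein-coding loci that span at least 10 kb, 1391 had a length of at least 50% of the span, as ACSL3 and ACSL4 do. In this class all atretic libraries lay above all healthy ones in 20.4% of the loci and below in 6.18%. Among the 1971 loci with a length under 10% of the span, as in ACSL5, the shares were 5.02% above and 18% below. The median log2 fold change was 0.04 in the former class and -0.12 in the latter. A log2 fold change at least as high as that of ACSL4 was found in 28 of the 1391 loci, in 10 of the 1971, and in 54 of all 7318. The part of intronic reads in the values of ACSL3 and ACSL4 was not tested.

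**Figure D3:**
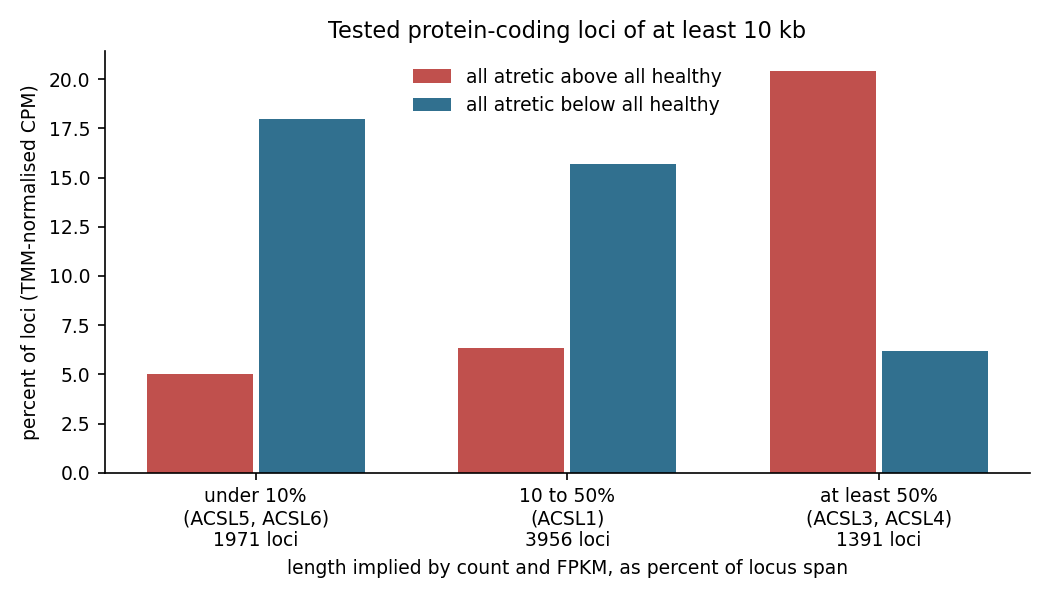
Percent of tested protein-coding loci of at least 10 kb whose 3 atretic libraries all lie above (red) or all below (blue) the 3 healthy ones, by the length implied by count and FPKM as a percent of the locus span. Loci of the class of ACSL3 and ACSL4 are more often above (20.4%) than below (6.18%), and loci under 10% more often below (18%); ACSL6 has a length of this last class but was not among the tested loci.

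Macrophage markers, and those of some other cell types, were highest in the same libraries as ACSL5. The 14 macrophage markers found, of 16 listed, summed to 396, 450 and 399 CPM in atretic replicates 1, 2 and 3 and to 818, 777 and 445 CPM in healthy replicates 1, 2 and 3. None of them was at 0, and the sums overlapped between groups, since healthy replicate 3 lay below atretic replicate 2. CD68, on a shared locus, was the largest member in every library, with 270 to 306 CPM in atretic and 312 to 335 CPM in healthy. It was most of the sum in the atretic libraries and healthy replicate 3. In healthy replicates 1 and 2 it held 335 of 818 and 312 of 777 CPM. The median log2 fold change of the 14 was -1.37, and 0 passed by edgeR with all 6 libraries. All atretic libraries lay below all healthy ones in 7 of them, against 10.8% of all loci. Without healthy replicate 3 edgeR called 12 lower, against 7.91% of all loci. ACSL5 had 1.75, 2.34 and 2.55 CPM and 6.49, 5.26 and 3.17 CPM in the same libraries, so both were highest in healthy replicates 1 and 2. The leukocyte gene PTPRC, on a locus shared with another name, had 9.91 to 11.3 CPM in atretic and 42.3, 40.4 and 9.25 CPM in healthy replicates 1, 2 and 3, with healthy replicate 3 below every atretic library. Endothelial markers summed to 17.6 to 18.8 CPM in atretic and 37.4, 45.2 and 22.8 CPM in healthy replicates 1, 2 and 3. Stroma and smooth muscle markers summed to 336 to 371 CPM in atretic and 433, 424 and 133 CPM in healthy replicates 1, 2 and 3. Most of that sum was MYH11, picked with its values known. It had 247 to 278 CPM in atretic and 256, 249 and 73.4 CPM in healthy replicates 1, 2 and 3. The granulosa and theca sums were highest in healthy replicate 3 instead. The part of any of these cell types in the ACSL5 difference was not tested.

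The make-up of the family was compared between the groups on the FPKM scale. Shares of the summed FPKM do not depend on library size, though they do depend on the lengths above. The shares of a library add up to the whole, so a rise of some members lowers the shares of the rest. ACSL4 made up 50.9 ± 1.97% of the family in atretic and 39.1 ± 2.89% in healthy, and ACSL3 31.6 ± 0.795% against 20.5 ± 1.37% (SD, n = 3). ACSL5 made up 4.07 ± 0.819% against 13.9 ± 5.27%, and ACSL6 3.19 ± 1.31% against 11.8 ± 9.88% (SD, n = 3). The groups did not overlap for any of these 4 shares, although the FPKM of ACSL6 itself overlapped. The healthy share of ACSL6 was 5.69, 6.51 and 23.2% in replicates 1, 2 and 3, and without healthy replicate 3 the difference between the groups went from -8.61 to -2.91 percentage points. The share of ACSL1 was 10.1, 10.2 and 10.5% in atretic and 18.4, 17.5 and 7.97% in healthy replicates 1, 2 and 3, and so overlapped. Without healthy replicate 3 its difference went from -4.40 to -7.72 percentage points.

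With 3 libraries a group an exact two-sided permutation test cannot give a p below 0.1. The shares of ACSL3, ACSL4, ACSL5 and ACSL6 had that exact p of 0.1, or 0.14 when adjusted over the 7 family measures tested, and ACSL1 had an exact p of 0.4. On the count scale, without length, the share of ACSL4 was 62.6 ± 1.2% in atretic and 62.8 ± 4.49% in healthy (SD, n = 3), so the higher share of ACSL4 held on the FPKM scale only. The share of ACSL3 was higher in atretic on that scale too, at 32.9 ± 1.11% against 28 ± 1.85%. The share of ACSL1 did not overlap on the count scale, at 3.94 to 4.17% in atretic and 4.196 to 9.77% in healthy, nor on the FPKM scale with all loci of a name summed, at 17.7 to 20.4% and 25.6 to 32.9% (exact p = 0.1 for each).

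**Figure D4:**
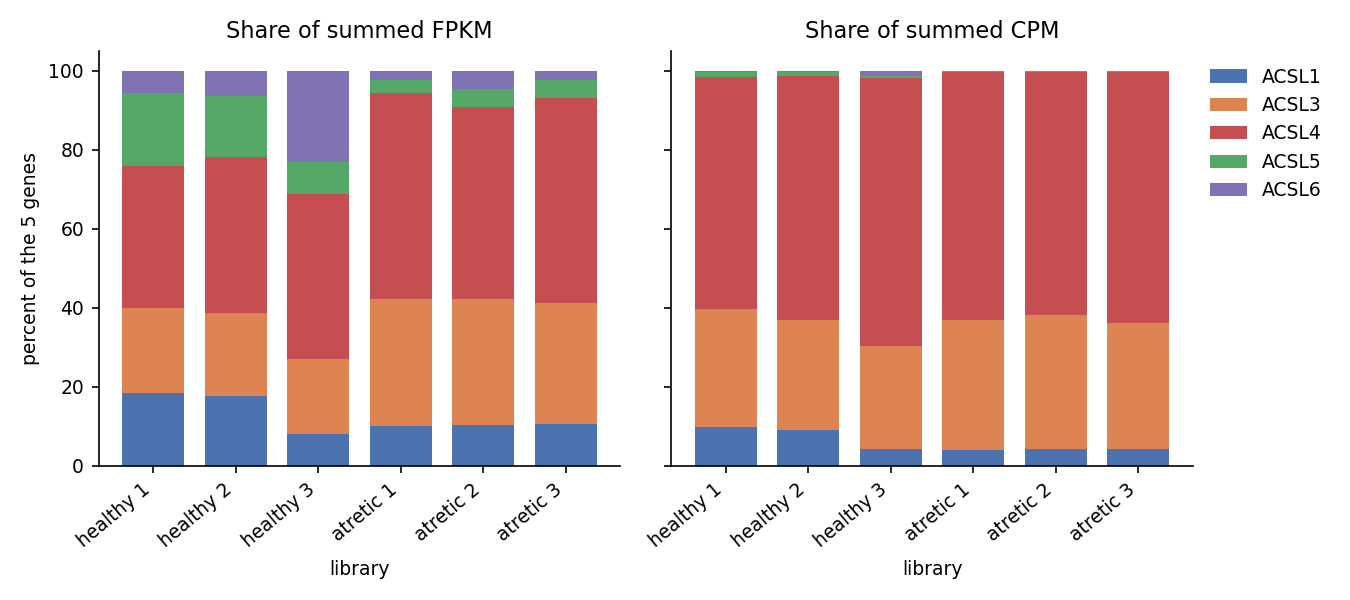
Share of each ACSL gene in the sum of the 5 genes, in percent, for each library, from FPKM (left) and from CPM (right). On the FPKM scale ACSL3 and ACSL4 together fill more of the atretic bars, and ACSL6 takes 23.2% in healthy replicate 3; on the CPM scale ACSL5 and ACSL6 are thin bands.

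The summed level of the family was 17.4, 16.5 and 17.8 FPKM in atretic and 12.5, 12 and 10.6 FPKM in healthy replicates 1, 2 and 3. The groups did not overlap. The mean log2 sum was higher by 0.56 in atretic, or by 0.49 without healthy replicate 3. On the count scale, with all 6 libraries, the difference was 0.98.

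ACSL4 and ACSL3 were compared with each other within each library, since both have locus-wide lengths. ACSL4 had 1.62, 1.53 and 1.70 times the FPKM of ACSL3 in atretic, and 1.68, 1.87 and 2.20 times in healthy replicates 1, 2 and 3. The atretic ratios were lower on average and overlapped the healthy ones. The log2 ratio averaged 0.69 ± 0.08 for atretic and 0.93 ± 0.20 for healthy libraries (SD, n = 3), a difference of -0.24 (exact two-sided permutation p = 0.2). Without healthy replicate 3 the difference was -0.13. Whether ACSL3 differed more than ACSL4 between the groups was thus not settled by these libraries.

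The genes with the most similar profiles were found among 3020 protein-coding loci with a mean of at least 5 FPKM. Likeness was the root mean square difference of log2 CPM over the 6 libraries, each profile centred on its own mean. Nearest to ACSL3 were the immediate-early transcription factor EGR1 (0.13), the transcriptional regulator ID3 (0.14) and ACSL4 itself (0.17). Nearest to ACSL4 were the choline kinase CHKA (0.14), the lipid scramblase TMEM41B (0.14) and the squalene epoxidase SQLE (0.15). CHKA had 987 to 1032 CPM in atretic and 458, 433 and 688 CPM in healthy replicates 1, 2 and 3, so that healthy replicate 3 lay highest of its group, as in ACSL4.

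Nearest to ACSL1 were RSRP1 (0.04), the cytokine receptor LIFR (0.05) and the kinase RIOK3 (0.05), and 25 loci lay within 0.1 of it. No locus came that close to ACSL3, ACSL4 or ACSL5. LIFR had 306 to 345 CPM in atretic, 372 and 371 CPM in healthy replicates 1 and 2 and 176 CPM in healthy replicate 3. Nearest to ACSL5 were the lysosomal proteases cathepsin Z, CTSZ (0.18), and SCPEP1 (0.18), and a locus shared by CTSS, ARNT and CTSK (0.18). CTSZ had 21.1 to 24.3 CPM in atretic and 64.6, 57.4 and 25.2 CPM in healthy replicates 1, 2 and 3, and thus also fell back in healthy replicate 3.

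The genes around the ACSL step were read from 10 lists with 150 genes, of which 130 were found and 91 tested. Most of the lists hold genes that make acyl-CoA, supply fatty acids, bind or split acyl-CoA, or use it. The rest hold lipid droplet genes, nuclear receptors and SREBPs, and genes of phospholipid peroxidation. The only gene called among them, CYBB, is on the peroxidation list. Of the 91 genes, 0 were higher and 1 was lower (1.1%) by edgeR with all 6 libraries, against 0.0476% and 0.0204% of all loci. All atretic libraries lay above all healthy ones in 7.69% of the 91 genes and below in 17.6%, against 11.1% and 10.8% of all loci. Their median log2 fold change was -0.08, against -0.03 over all loci tested. Without healthy replicate 3, 9 were higher (9.89%) and 11 were lower (12.1%), against 10.9% and 7.91% of all loci. By DESeq2 4 of the 91 were higher and 4 lower, against 372 and 257 of 14656 loci (2.54% and 1.75%). At an unadjusted edgeR p under 0.05, 5 of the 91 were higher and 12 lower, against 937 and 942 of the 14702 loci.

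Among the other acyl-CoA synthetases, 12 tested, the median log2 fold change was 0.00 and no gene passed. ACSS2, which activates acetate, averaged 37.5 ± 1 CPM for atretic against 21.8 ± 2.22 (SD, n = 3; 0.79 in log2, edgeR adjusted p = 0.107) without overlap. The fatty acid transport protein SLC27A1, which also activates fatty acids, lay on a locus shared with NIBAN3 and PGLS and had 195 to 213 CPM in atretic and 191, 183 and 407 CPM in healthy replicates 1, 2 and 3. Of the 5 tested genes of fatty acid uptake and binding none passed. The lipoprotein lipase LPL stood at 0.83 in log2 (edgeR adjusted p = 0.521).

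None of the 4 tested acyl-CoA thioesterases passed, which return acyl-CoA to free fatty acid. ACOT7 averaged 39.8 ± 1.72 CPM for atretic against 20.9 ± 2.79 (SD, n = 3), or 0.93 in log2 (SE 0.14, edgeR adjusted p = 0.0973), while the median of the 4 was -0.38. None of the 5 acyl-CoA binding proteins passed either. DBI, the acyl-CoA binding protein itself, had 7.11 ± 0.22 against 11.7 ± 2.02 CPM (SD, n = 3), or -0.72 in log2 (edgeR adjusted p = 0.218). ACOT7 lay above all healthy libraries and DBI below them in every atretic library.

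Of the 15 acyltransferases, which place acyl groups on glycerolipids, 12 had negative log2 fold changes and none passed. LPCAT3, which puts polyunsaturated acyl groups into phospholipids and is known beside ACSL4 from ferroptosis, had 24.6 ± 2.76 against 25.3 ± 2.84 CPM (SD, n = 3; -0.04 in log2, edgeR adjusted p = 0.934). LPCAT3 fell outside the naming rule and was chosen after its value was seen. MBOAT1 stood at -0.87 in log2 (edgeR adjusted p = 0.174), LPCAT1 one of -0.38 and MBOAT7 one of -0.39, all without overlap.

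None of the 8 tested genes of acyl-CoA entry into mitochondria and peroxisomes passed. Their median was -0.29 in log2 and none was above 0, where 6763 of all 14702 loci were, but CPT1C (-0.00517) and ABCD3 (-0.00133), picked with their values known, lay at about 0. The carnitine palmitoyltransferase CPT2 had 29.4 ± 2.29 against 37.7 ± 0.85 CPM (SD, n = 3; -0.36 in log2, edgeR adjusted p = 0.279). The peroxisomal carnitine octanoyltransferase CROT stood at -0.55 in log2 (edgeR adjusted p = 0.353).

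Of the 13 elongation and desaturation genes none passed. ELOVL5, which elongates polyunsaturated acyl-CoA, had 654 ± 24.6 against 351 ± 33.4 CPM (SD, n = 3; 0.90 in log2, edgeR adjusted p = 0.105). The stearoyl-CoA desaturase SCD, which makes oleoyl-CoA, had 1400 ± 77.7 against 1927 ± 253 CPM (SD, n = 3; -0.46 in log2, edgeR adjusted p = 0.334). Of the 12 lipid droplet genes none passed, with PLIN3 at -0.52 in log2 (edgeR adjusted p = 0.266) and the lipase cofactor ABHD5 at -0.999 (edgeR adjusted p = 0.432).

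Of the 10 nuclear receptor and SREBP genes, among them regulators known to act on ACSL genes in other mammals, none passed. The locus named INSIG1, after the protein that holds SREBP in the endoplasmic reticulum, has no annotated transcript and stood at 0.85 in log2 (edgeR adjusted p = 0.217). The fatty acid receptor PPARA had 87.7 ± 1.72 against 68.9 ± 8.8 CPM (SD, n = 3; 0.35 in log2, edgeR adjusted p = 0.327). All atretic libraries were above all healthy ones in 3 of the 10 genes, INSIG1, PPARA and PPARD, as in 11.1% of all loci tested.

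Of the 7 tested genes of phospholipid peroxidation, 1 fell, the phagocyte oxidase subunit CYBB. It had 53.7 ± 1.03 against 108 ± 6.08 CPM (SD, n = 3), or -1.004 in log2 (SE 0.10, edgeR adjusted p = 0.0497), and it is a macrophage gene as well. The peroxide-reducing enzyme GPX4 had 29.9 ± 4.33 against 37.4 ± 3.59 CPM (SD, n = 3; -0.32 in log2, edgeR adjusted p = 0.427). CYB5R1 stood at -0.84 in log2 (edgeR adjusted p = 0.241).

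**Figure D5:**
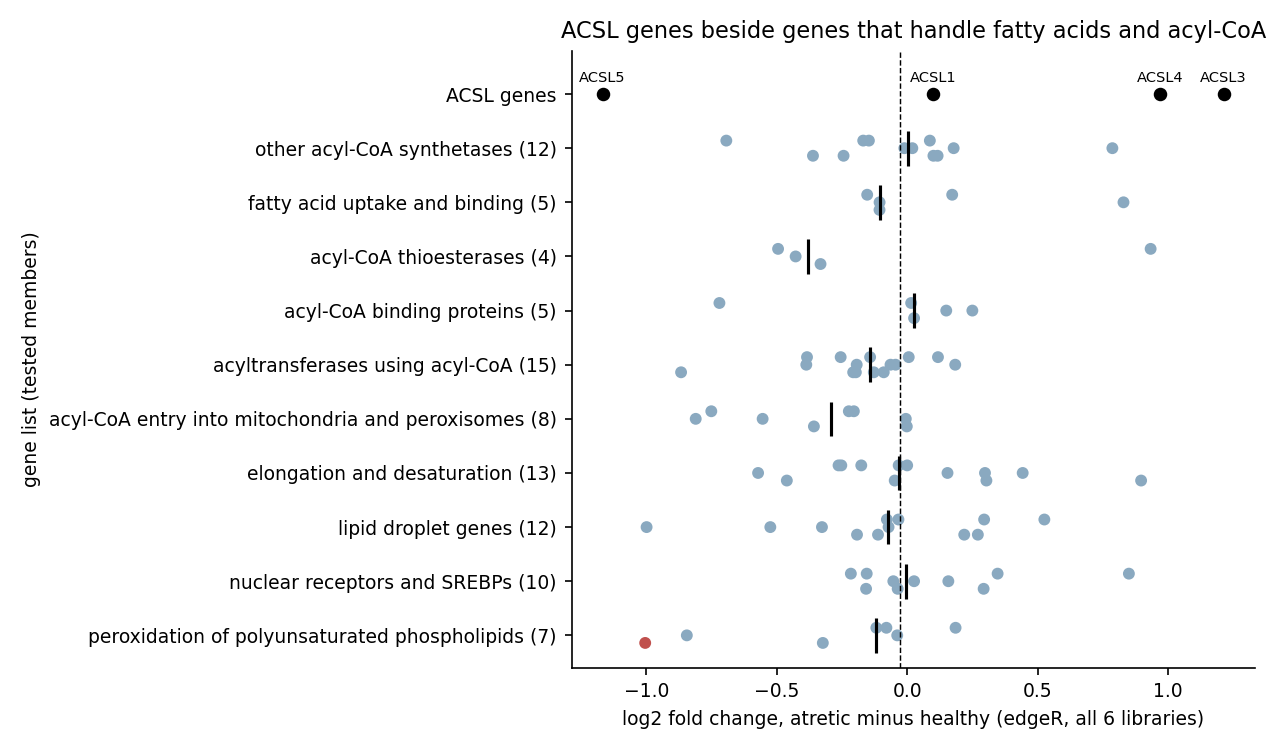
Log2 fold change (atretic minus healthy, edgeR, all 6 libraries) of the 4 tested ACSL genes (black) and of the tested members of 10 gene lists (points; black bars are list medians, the dashed line is the median of all 14702 loci). CYBB, in red, is the only list member past the threshold, and ACSL3 and ACSL5 lie beyond the list members at either end.

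Within the ACSL4 locus ran a transcript on the minus strand, MSTRG.1721 (134061833 to 134067484), which carries the name ACSL4 but lies opposite to it. It had 464, 275 and 290 counts in atretic and 87, 76 and 182 counts in healthy replicates 1, 2 and 3, all atretic libraries being above all healthy ones. Its log2 fold change was 1.57 (SE 0.51, edgeR adjusted p = 0.293). Whether counting used strand is not stated in the sources used here, so its reads and those of ACSL4 cannot be told apart. It held few counts beside the 28883 to 59910 of the ACSL4 locus.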

How the data were processed

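Gene-level RNA sequencing values of 6 libraries were analysed. The count columns hold raw counts per locus, per the file headers, and the FPKM columns hold values the authors scaled by locus length and library total, per the file headers and the values. StringTie 2.1.6, SAMtools, HISAT2 2.0.4, FastQC 0.11.9 and cutadapt 1.9 are named, without roles, per the submitters' processing notes. Not given in the sources used here are build, annotation and strand setting.

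Groups came from the titles. The 5640 loci without a gene name entered neither library sizes nor tests. Named loci with a mean FPKM of at least 1 were tested with edgeR 4.0.16 (TMM, quasi-likelihood, group alone, two-sided, Benjamini-Hochberg at 0.05). Standard errors came from the F statistic. Alternatives used limma 3.58.1 on log2(FPKM + 1) and on log2(FPKM + 0.1), and DESeq2 1.42.0, in R 4.3.3. Family shares used exact permutation over libraries in scipy 1.17.1. The fit was tested on simulated counts.

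Members and lists were chosen with earlier results of these data known. The split by locus length was chosen after the data were seen. Named genes were the 5 members, list members that passed plus up to 4 with the smallest p per pathway list, the 3 of a marker list with the highest mean FPKM, and the 3 nearest profiles; exceptions are marked where they stand. Loci of a member's name were described from a mean count of 50. Sequences were not used here. Counting error weighs most, relative to the level, in ACSL5 and ACSL6, whose counts were the lowest of the family. It was not set against the spread between libraries.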

Additional observations from a re-analysis of the deposited data

How the results depend on the processing

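ACSL3 kept its direction in every alternative. Its log2 fold change, past the threshold with all 6 libraries, missed it at 1.21 with library totals alone, 0.92 by limma on log2(FPKM + 1), 1.15 on log2(FPKM + 0.1), 1.22 with no filter on low values, and 1.21 with the replicate block. With 1 library left out it ranged from 1.18 to 1.25. By DESeq2 ACSL4 (0.98) passed. ACSL5 stood at -1.16 by DESeq2, as a description and not a call, since it entered the tests through the healthy libraries alone. With 1 library left out ACSL4 ranged from 0.91 to 1.08, ACSL5 from -1.41 to -0.92 and ACSL1 from -0.17 to 0.30. Among these fits ACSL4 passed only without healthy replicate 3. ACSL1 turned to -0.055 with its loci summed. The ACSL6 log2 ratio ranged from -1.62 to -0.46. No result for ACSL1, ACSL3, ACSL5 or ACSL6 exists at a mean FPKM of at least 5, which they miss.

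Loci called higher, 7 in all, and lower, 3, became 11 and 1 with library totals alone, 372 and 257 by DESeq2, 2 and 0 with no filter, 17 and 1 at a mean FPKM of at least 5, 14 and 5 among protein-coding loci, and 33 higher with unnamed loci. By limma 1 was lower at either pseudocount, and 1 by robust dispersion. With 1 library left out they ranged from 0 to 1598 and from 0 to 1163. Without any 1 atretic library edgeR called 0 either way, with 505 to 774 higher and 388 to 735 lower at an unadjusted p under 0.05. With the replicate block 0 and 0 were called by edgeR, with 714 and 537 at an unadjusted p under 0.05. Same-numbered libraries share only a number: their deviations correlated at -0.17, 0.07 and -0.01.

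In family measures the atretic minus healthy share moved, on the count scale, to 4.96 percentage points for ACSL3, -0.15 for ACSL4 (a change of sign), -0.68 for ACSL5 and -0.60 for ACSL6, and the log2 sum to 0.98. With all loci of a name summed the share became -11 for ACSL1, 8.28 for ACSL3 and 16.2 for ACSL4, and the ACSL4 to ACSL3 log2 ratio -0.088. With 1 library left out, shares ranged from -7.72 to -2.50 (ACSL1), 10.2 to 11.5 (ACSL3), 10.3 to 13.2 (ACSL4), -12.8 to -7.65 (ACSL5) and -11.7 to -2.91 (ACSL6). The cause of these changes was not tested.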
